A study of Arabidopsis thaliana with 6 samples.

Results

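The non-canonical Aux/IAA genes of Arabidopsis thaliana were examined in seedlings after activation of the transcription factor PLT2. The set holds 7 listed genes of the Aux/IAA family: IAA30 (AT3G62100), IAA20 (AT2G46990), IAA31 (AT3G17600), IAA33 (AT5G57420), IAA32 (AT2G01200), IAA34 (AT1G15050) and IAA29 (AT4G32280). The list was drawn up for genes with an absent or diverged degron, or of the clade of IAA20 and IAA30. No protein sequence was examined here, so whether the degron of IAA29 is absent or diverged was not checked. A gene was taken where the platform's probe table pairs a probe set with that gene alone. By this rule 6 of the 7 genes were measured, each by 1 probe set, out of 17504 probe sets with a gene. IAA32 was not analysed here. The genes were chosen by family and listed degron type around IAA30. IAA30 itself was selected on its measured difference between dexamethasone and mock seedlings on these arrays. The values of the set in this contrast are therefore a description, and the adjusted p-values printed beside them are not independent evidence of any change.

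Total RNA was taken from intact plantlets carrying 35S::PLT2-GR, a transgene in which the 35S promoter, active in most tissues, drives PLT2 joined to the steroid-binding part of the glucocorticoid receptor. The dexamethasone group was 3 flasks of seedlings 4 days old when moved to liquid culture overnight, then given 10 µM dexamethasone for 6 h. The mock group was 3 flasks of the same line and age given the solvent DMSO for 6 h. Each flask held about 50 seedlings in 50 ml, so an array reads a pool. Both groups carry the transgene, and no dexamethasone-treated seedlings without it are among these arrays, so effects of the steroid and of the fusion protein cannot be told apart.

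Aux/IAA proteins repress auxin-responsive genes. They bind auxin response factors on DNA through a C-terminal domain and recruit TOPLESS co-repressors through an N-terminal motif, and in canonical members a degron called domain II is held by auxin against the F-box receptors TIR1 and AFB, which marks the repressor for destruction. Proteins without a working degron are not removed in this way when auxin rises. PLT2 belongs to the PLETHORA family of AP2-domain factors, which maintain the root meristem and whose expression follows auxin.

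The arrays gave log2 probe set values, and 1 unit is a doubling. Array medians lay between 5.44 and 5.48 in dexamethasone seedlings and between 5.43 and 5.46 in mock seedlings. First quartiles lay between 3.1 and 3.24 in dexamethasone seedlings and between 3.05 and 3.08 in mock seedlings. Across probe sets with a gene, Pearson correlations were 0.990 to 0.994 between arrays of a group and 0.976 to 0.981 between arrays of different groups. Of the green tissue markers, the Rubisco activase gene RCA averaged 10.82 ± 0.07 in dexamethasone seedlings and 11.14 ± 0.05 in mock seedlings, and LHCB4.1, a light-harvesting gene, averaged 9.95 ± 0.08 in dexamethasone seedlings and 10.18 ± 0.05 in mock seedlings (SD, n = 3). Of the root hair markers, the expansin gene EXPA7 averaged 4.98 ± 0.23 in dexamethasone seedlings and 6.21 ± 0.19 in mock seedlings, and EXPA18 averaged 4.83 ± 0.46 in dexamethasone seedlings and 6.17 ± 0.09 in mock seedlings (SD, n = 3). Markers of shoot and root were thus both measured above the first quartile on every array. Of these 4 markers, out of 8 listed, RCA, EXPA7 and EXPA18 were lower in dexamethasone seedlings by limma (adjusted p 0.0475, 0.00286 and 0.00755). LHCB4.1 was not past the threshold (adjusted p 0.12), and among the refits it passed only with limma's intensity trend (0.0137). The call of RCA was lost without any 1 of the 6 arrays (adjusted p 0.0701 to 0.139), with the replicate number as a block (0.101) and over all probe sets (0.0674), while those of EXPA7 and EXPA18 held in these fits. In whole seedlings, fewer cells of a type and less RNA per cell cannot be told apart, and the part of these shifts in the results below was not tested.

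The non-canonical genes did not move as a block. IAA30 and IAA33 were several-fold higher in dexamethasone seedlings, IAA29 and IAA34 were lower by less than 2-fold, and IAA20 and IAA31, the genes grouped with IAA30 in its own clade, did not pass the threshold. At an adjusted p of 0.05 in limma, 4 of the 6 measured genes passed, 2 higher and 2 lower. Over all probe sets with a gene 18.6% passed, 9.04% as higher and 9.54% as lower, and nothing is read from the genes' count since this contrast was in view when they were chosen. Their median log2 difference, dexamethasone minus mock, was -0.33, beside 0.02 over all probe sets with a gene. The groups did not overlap for 4 of the 6 genes, where 38.1% of all probe sets with a gene had groups that do not overlap.

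**Figure D1:**
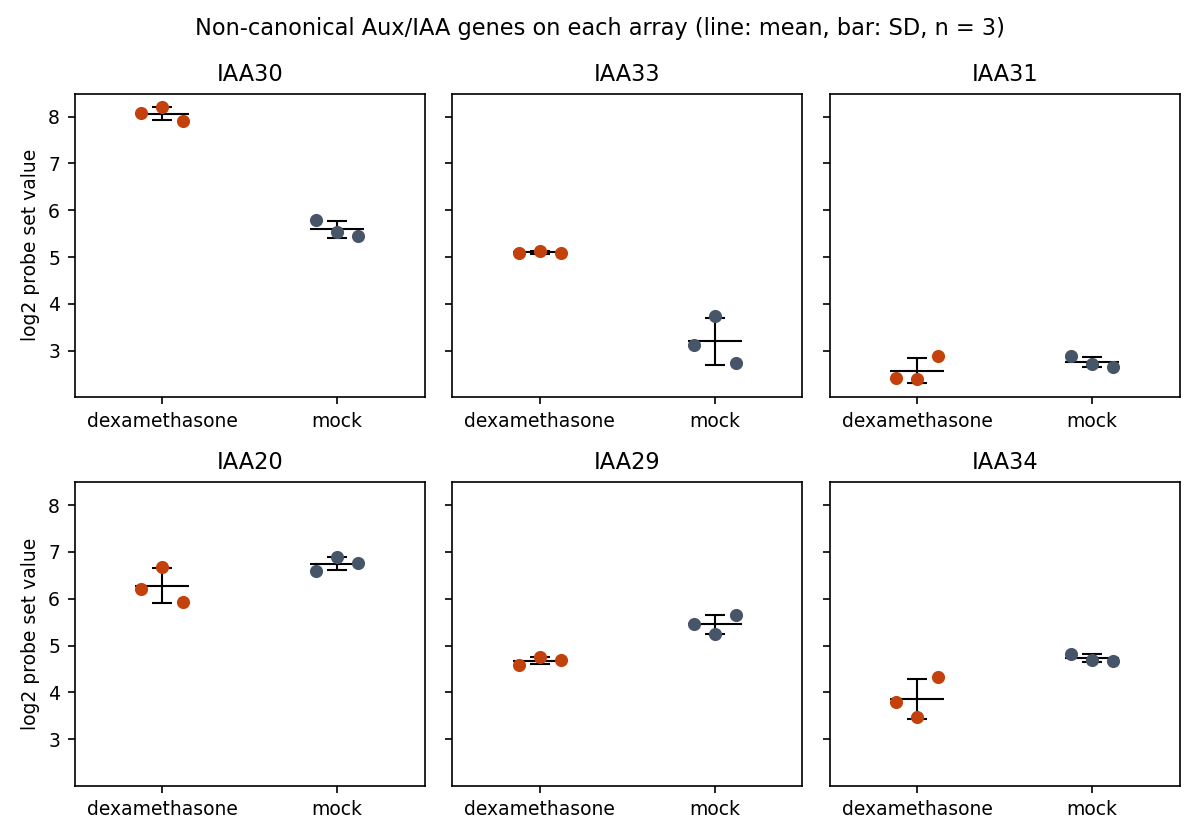
Log2 probe set value (y axis) of the 6 measured non-canonical Aux/IAA genes on each array, with dexamethasone seedlings left of mock seedlings; points are arrays, lines are means and bars are SD (n = 3). All dexamethasone arrays lie above all mock arrays for IAA30 and IAA33 and below them for IAA29 and IAA34, while the groups overlap for IAA20 and IAA31.

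IAA30 encodes a protein without domain II and is known as a target of the embryo regulators LEC2 and AGL15 and of the auxin response factor MONOPTEROS. Its log2 values were 8.07, 8.20 and 7.91 in dexamethasone seedlings, against 5.80, 5.54 and 5.44 in mock seedlings. The lowest dexamethasone array stood 2.11 above the highest mock array, and values within a group spanned only 0.28 in dexamethasone seedlings and 0.36 in mock seedlings. The group means were 8.06 ± 0.14 in dexamethasone seedlings and 5.59 ± 0.18 in mock seedlings (SD, n = 3). The log2 difference was 2.47 (SE 0.13, 95% interval 2.16 to 2.77), which is 5.53-fold with an interval from 4.48 to 6.83. The difference ranked 48 from the top among the 17504 probe sets with a gene, and limma's adjusted p was 0.000106. With any 1 array left out it lay between 2.39 and 2.57.

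IAA20 is the closest relative of IAA30, also lacks domain II, and like it is a known target of MONOPTEROS in vascular tissue. Its log2 values were 6.21, 6.68 and 5.94 in dexamethasone seedlings, against 6.60, 6.89 and 6.76 in mock seedlings. Dexamethasone replicate 2 lay inside the mock range, and the other 2 dexamethasone arrays lay below it. The log2 difference was -0.47 (SE 0.19, 95% interval -0.92 to -0.02) with a limma adjusted p of 0.135, so it did not pass. Without dexamethasone replicate 2 the difference was -0.67 and the adjusted p 0.0333, so that array decides on which side of the threshold IAA20 lies. The 95% intervals of IAA30 and IAA20 had opposite signs. That is a description only, since IAA30 was selected on its difference and the 2 genes were not tested against each other.

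IAA31 is the third gene of this clade, and its protein is known to be long-lived compared with canonical Aux/IAA proteins. Its log2 values were 2.42, 2.40 and 2.88 in dexamethasone seedlings, against 2.88, 2.71 and 2.66 in mock seedlings. The groups overlap, and all 6 values were below the first quartile of their own array. The log2 difference was -0.18 (SE 0.15, 95% interval -0.54 to 0.17, limma adjusted p 0.451). No background estimate was used here, so at this low level a difference of IAA31 transcript may have gone unmeasured.

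IAA33 encodes a small protein that lacks domain II and the co-repressor motif, and is known to act with ARF10 and ARF16 in the distal stem cells of the root tip. Its log2 values were 5.08, 5.13 and 5.08 in dexamethasone seedlings, against 3.12, 3.73 and 2.74 in mock seedlings. The dexamethasone arrays were almost level, with a span of 0.05, while the mock arrays spanned 0.99. Even so the groups stood 1.35 apart. The means were 5.10 ± 0.03 in dexamethasone seedlings and 3.2 ± 0.50 in mock seedlings (SD, n = 3). The log2 difference was 1.90 (SE 0.23, 95% interval 1.35 to 2.44), or 3.73-fold with an interval from 2.56 to 5.43, and limma's adjusted p was 0.00266. It ranked 99 from the top among probe sets with a gene. Mock replicate 3 was below the first quartile of its array, mock replicate 1 was just above that of its own (3.05) and mock replicate 2 was clearly above it (3.06), so the fold is approximate; leaving out mock replicate 2 gave a difference of 2.16, and leaving out mock replicate 3 gave 1.67.

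IAA34 and IAA32 encode proteins without domain II that are known from the apical hook, where the cleaved kinase domain of TMK1 phosphorylates and stabilises them. The log2 values of IAA34 were 3.79, 3.48 and 4.33 in dexamethasone seedlings, against 4.82, 4.70 and 4.67 in mock seedlings. Here the spread sat in the dexamethasone group, with a span of 0.85 against 0.15 in mock seedlings, and the groups stood 0.34 apart. The means were 3.86 ± 0.43 in dexamethasone seedlings and 4.73 ± 0.08 in mock seedlings (SD, n = 3). The log2 difference was -0.87 (SE 0.21, 95% interval -1.35 to -0.38), so IAA34 was 1.82-fold lower in dexamethasone seedlings, with a limma adjusted p of 0.0282. With 1 array left out the adjusted p stayed under 0.05 only without dexamethasone replicate 3 (difference -1.10, adjusted p 0.00592). It was 0.0815 and 0.0587 without dexamethasone replicates 1 and 2, and 0.0901, 0.0747 and 0.0704 without mock replicates 1, 2 and 3.

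IAA29 is known from light and shade responses, where phytochrome-interacting factors activate it. Its log2 values were 4.59, 4.75 and 4.69 in dexamethasone seedlings, against 5.45, 5.24 and 5.66 in mock seedlings. The groups stood 0.48 apart, more than the span of either group, which was 0.16 in dexamethasone seedlings and 0.42 in mock seedlings. The log2 difference was -0.77 (SE 0.13, 95% interval -1.07 to -0.47), so IAA29 was 1.70-fold lower in dexamethasone seedlings with an interval from 1.39 to 2.1. Limma's adjusted p was 0.00801. With any 1 array left out, the difference lay between -0.88 and -0.66 and the adjusted p between 0.011 and 0.033.

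**Figure D2:**
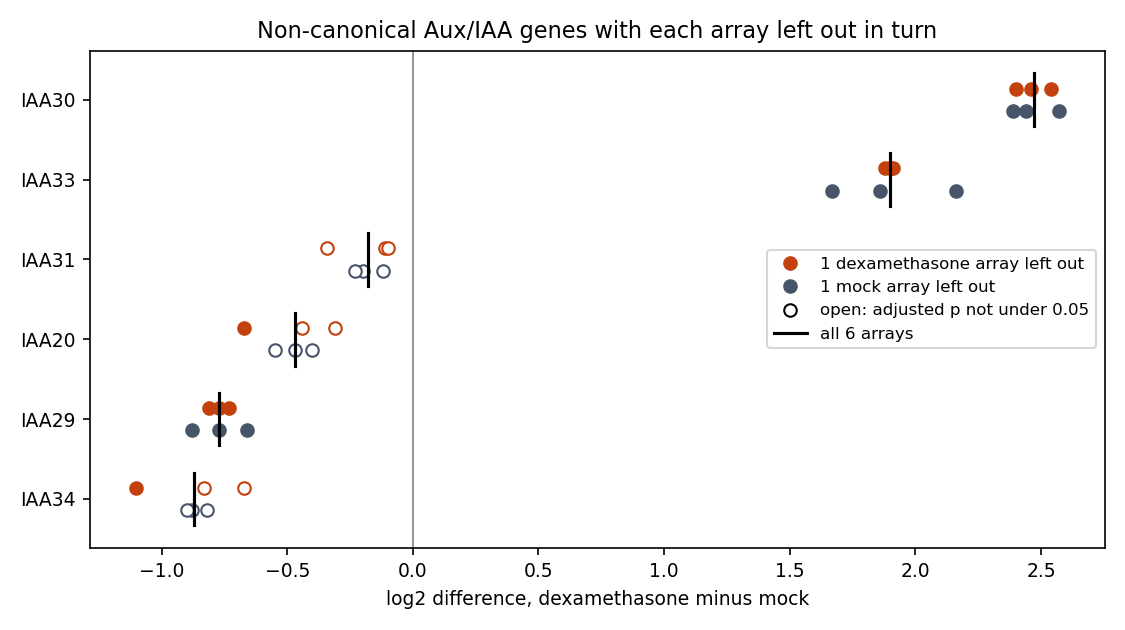
Log2 difference, dexamethasone minus mock (x axis), of each non-canonical Aux/IAA gene with all 6 arrays (black line) and with 1 dexamethasone or 1 mock array left out (points; open where the adjusted p is not under 0.05). IAA30, IAA33 and IAA29 have filled points throughout, while IAA34 has 1 filled point and IAA20 has 1.

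Ordered by difference, the genes ran IAA30 (2.47), IAA33 (1.90), IAA31 (-0.18), IAA20 (-0.47), IAA29 (-0.77) and IAA34 (-0.87). The 95% intervals of IAA30 and IAA33 overlap, as do those of each neighbouring pair from IAA31 down to IAA34. Overlap of intervals is not a test of a difference between genes, and the order within these pairs was not tested. Between IAA33 and IAA31 the intervals do not overlap, with a lower bound of 1.35 for IAA33 and an upper bound of 0.17 for IAA31. IAA30 and IAA33 lay above the other 4 measured genes in these arrays. This is a description only, since IAA30 was selected on this difference and no difference between genes was fitted.

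The other genes of the auxin pathway that were listed by locus were thinly covered by the probe table. Of 22 other Aux/IAA genes 2 were measured. IAA18, a repressor with a degron that acts in lateral root formation, had log2 values of 5.05, 4.96 and 5.20 in dexamethasone seedlings, against 5.64, 5.44 and 5.56 in mock seedlings, and was 1.39-fold lower in dexamethasone seedlings (log2 difference -0.47, SE 0.11, limma adjusted p 0.0227). That call did not hold without dexamethasone replicate 1 or 2 or mock replicate 1 or 3, with adjusted p of 0.0649, 0.0694, 0.0838 and 0.0663. IAA15, named after its value was seen, had a difference of 0.03 with a 95% interval from -0.27 to 0.34, all 6 of its values lying below the first quartile, and by quantile normalization the sign turned (-0.05). None of 22 auxin response factors and none of 11 receptor and co-repressor genes had a probe set named here, so the binding partners of these repressors were not analysed.

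Of the 5 kinases linked to non-canonical Aux/IAA proteins, the receptor-like kinase genes TMK2 and TMK3 were measured and neither passed. TMK2 had a log2 difference of 0.19 (95% interval -0.32 to 0.69, limma adjusted p 0.601), and TMK3, named after its value was seen, had -0.07 (95% interval -0.28 to 0.14, limma adjusted p 0.639). The difference of TMK2 was -0.06 without dexamethasone replicate 3. TMK2 averaged 2.88 in dexamethasone seedlings and 2.69 in mock seedlings, and 5 of its 6 values were below the first quartile of their own array. At this low level a difference of TMK2 transcript may have gone unmeasured. Of the 5 phytochrome-interacting factors, PIF7 was measured, a basic helix-loop-helix factor of shade responses. Its values of 5.48, 5.59 and 5.74 in dexamethasone seedlings lay below those of 6.11, 5.85 and 5.85 in mock seedlings, with a log2 difference of -0.33 (SE 0.12) that did not pass (limma adjusted p 0.0964).

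Among the listed GH3 and LBD genes, 7 of 12 were measured, of which 1 rose, 2 fell and 4 did not pass. Of those that did not pass, GH3.4 had all 6 values and LBD29 had 5 of 6 below the first quartile of their own array. Differences of GH3.4 and LBD29 may thus have gone unmeasured. Over all probe sets with a gene 18.6% passed, 9.04% as higher and 9.54% as lower. The median log2 difference of the 7 genes was -0.23, beside 0.02 over all probe sets with a gene. Whether auxin induces each of them in these seedlings was not tested. Without mock replicate 1 none of the 7 passed by limma, and without mock replicate 3 only 1 did. GH3.17, for an enzyme that conjugates auxin to glutamate, had log2 values of 6.56, 6.83 and 6.61 in dexamethasone seedlings, against 7.42, 7.17 and 7.20 in mock seedlings, and was 1.51-fold lower in dexamethasone seedlings (limma adjusted p 0.0147, and 0.0535 without mock replicate 1). The gene of a second conjugating enzyme, GH3.5, had a log2 difference of -0.71 (limma adjusted p 0.0168, with 0.0619 and 0.0502 without mock replicates 1 and 3). GH3.3 had a log2 difference of 0.56 (limma adjusted p 0.033), and with 1 array left out its adjusted p reached 0.0949 and was under 0.05 only without dexamethasone replicate 2. With the replicate number as a block only 1 of the 7 passed, since GH3.5 (adjusted p 0.051) and GH3.3 (0.0537) did not.

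**Figure D3:**
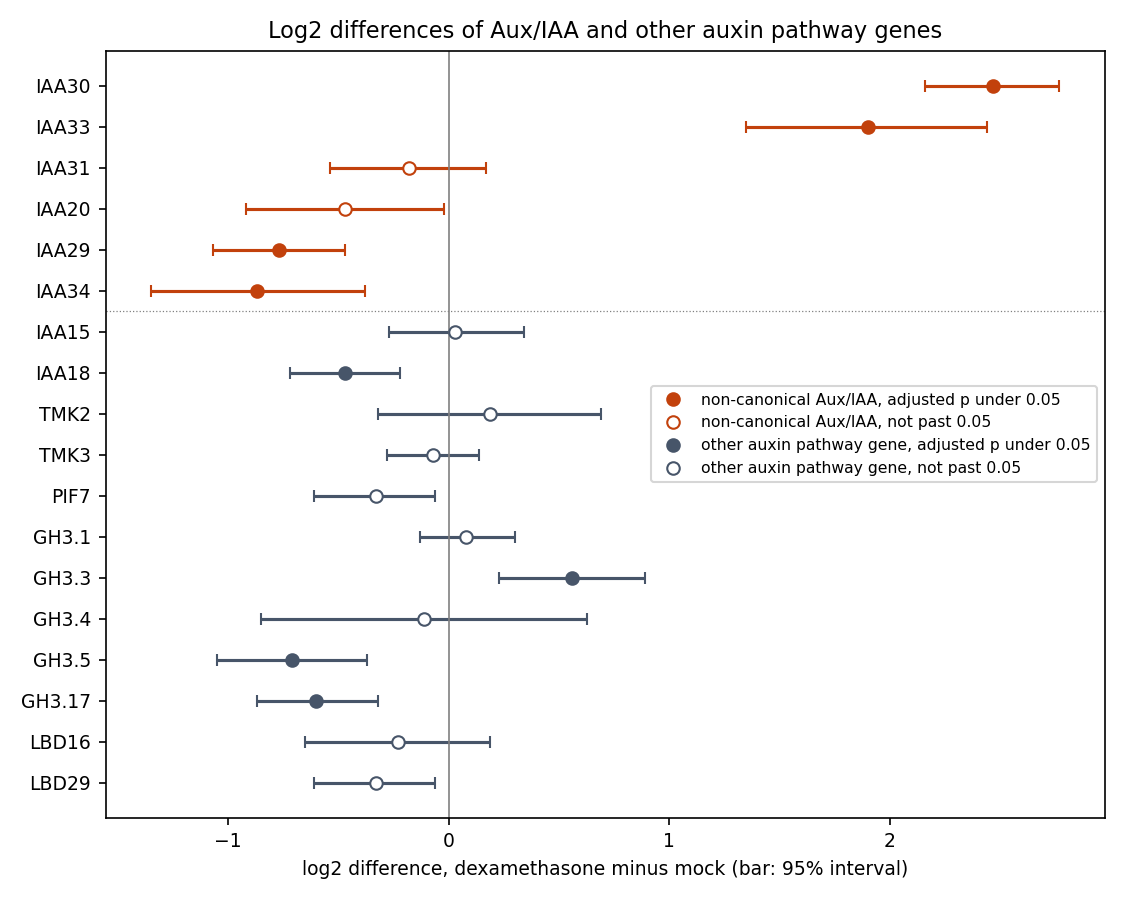
Log2 difference, dexamethasone minus mock, with its 95% interval (x axis) for the 6 non-canonical Aux/IAA genes (top) and the measured genes of the other auxin lists; filled points have an adjusted p under 0.05. IAA30 at 2.47 and IAA33 at 1.90 lie to the right of every other gene shown, the next being GH3.3 at 0.56.

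The genes whose pattern was nearest to that of IAA30 were sought among 16740 probe sets of 1 gene by the root mean square difference between log2 values, each gene centred on its own mean of the 6 arrays. The nearest 5 were AT4G22250 (0.149), AT4G03965 (0.151), APS3 (0.160), AT2G04020 (0.161) and AT1G68240 (0.162). AT4G22250 had log2 values of 8.11, 8.15 and 8.10 in dexamethasone seedlings, against 5.63, 5.82 and 5.42 in mock seedlings. APS3, for an ATP sulfurylase of sulfate assimilation, had log2 values of 8.76, 8.70 and 8.58 in dexamethasone seedlings, against 6.61, 6.37 and 6.46 in mock seedlings. The log2 differences of the 5 genes ran from 2.20 (APS3) to 2.52 (AT1G68240), beside 2.47 for IAA30. The measure picks genes with the same difference between the same 6 arrays, so their likeness is a description of this contrast.

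**Figure D4:**
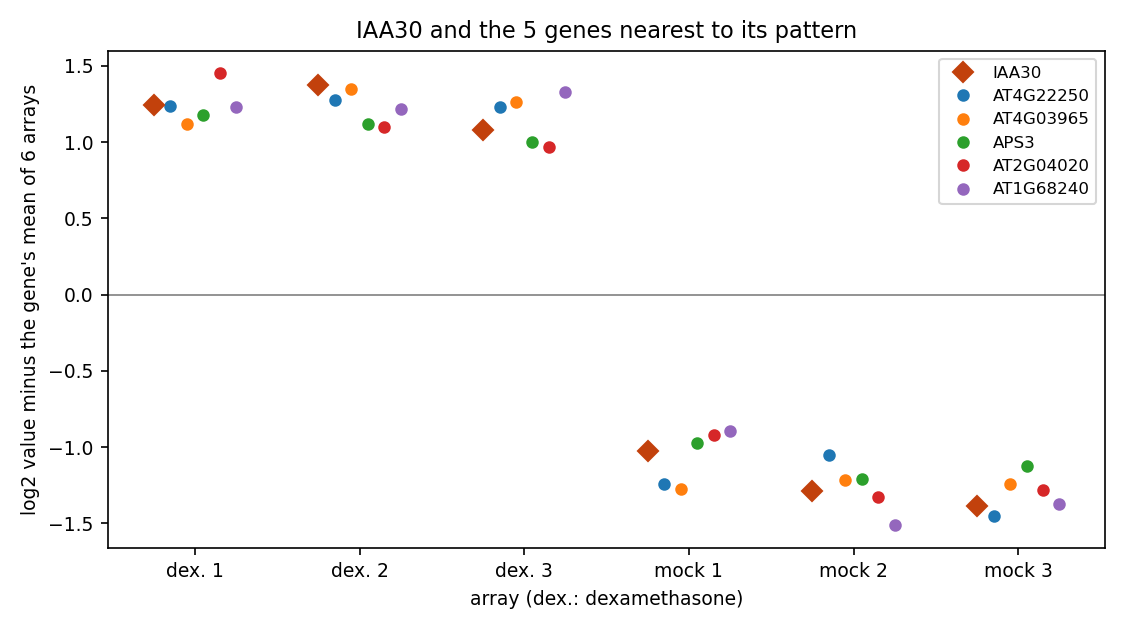
Log2 value minus the gene's own mean over the 6 arrays (y axis) on each array (x axis), dexamethasone arrays left of mock arrays, for IAA30 (diamonds) and the 5 genes nearest to its pattern (circles). All 6 genes lie above 0 on the dexamethasone arrays and below 0 on the mock arrays.

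The protein-coding genes next to each non-canonical Aux/IAA gene in the order of the RefSeq annotation of TAIR10.1 were compared too, a choice made after the results of the 7 genes were known. Of 14 neighbours 8 were measured and 2 passed the limma threshold, where 18.6% of all probe sets with a gene did. Beside IAA30, AT3G62110 had log2 values of 7.67, 7.62 and 7.54 in dexamethasone seedlings, against 8.02, 8.04 and 7.94 in mock seedlings. It was therefore lower in dexamethasone seedlings (log2 difference -0.39, limma adjusted p 0.0244), opposite to IAA30, though with 1 array left out its adjusted p was 0.0476 to 0.0852, under 0.05 only without dexamethasone replicate 1, and with the replicate number as a block it was 0.0595. Beside IAA33, AT5G57410 had a log2 difference of 0.40 (limma adjusted p 0.0833), against 1.90 for IAA33 itself. AT5G57410 did pass with limma's intensity trend (adjusted p 0.0251) and without the dimmest probe sets (0.049).

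Beside IAA32, which was not analysed here, AT2G01210 had log2 values of 7.52, 7.21 and 7.26 in dexamethasone seedlings, against 5.83, 5.87 and 5.80 in mock seedlings. It was 2.82-fold higher in dexamethasone seedlings (log2 difference 1.49, SE 0.11, limma adjusted p 0.000437). The neighbours of IAA29, AT4G32272 and AT4G32285, had log2 differences of -0.17 and -0.18 and did not pass (limma adjusted p 0.512 and 0.22). The measured neighbours of IAA31 did not pass either: BSH (AT3G17590), a chromatin-remodelling subunit gene, had 0.29, and HYH (AT3G17609), a bZIP factor gene of light signalling, had -0.32. Among the refits, HYH passed only with limma's intensity trend (adjusted p 0.0314). AT1G15060, beside IAA34, had a log2 difference of 0.08, which was -0.02 without dexamethasone replicate 1.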

How the data were processed

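The authors deposited a log2 value for every probe set on every array. The submitters' processing notes list RMA and limma 3.24.15 but do not say what each did, and the genome build is not given in the sources used here. A gene is paired with 17504 of the 38408 probe sets in the platform's probe table, and exactly 1 gene with 16746. Genes were matched by gene ID to RefSeq (TAIR10.1) locus codes. No coordinates are printed. The probe set of PLT2 was not analysed here.

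Dexamethasone minus mock was fitted by lmFit and eBayes of limma 3.58.1 (R 4.3.3, two-sided) on all 6 arrays, with Benjamini-Hochberg adjustment over the 17504 probe sets and a threshold of 0.05. SE and 95% intervals are moderated, and folds are log2 differences put back on the linear scale. The code was tested on simulated data. The number of arrays limits the precision; flasks are biological replicates per the labels.

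The genes, lists and alternatives were chosen with earlier results of these data known. The naming rule took all non-canonical genes, up to 3 called genes with the largest difference per list or otherwise the one with the smallest p, organ markers, and the 5 genes nearest to IAA30. Lists had 92 genes in all. Whether probes cross-hybridise with related genes was not tested.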

Additional observations from a re-analysis of the deposited data

How the results depend on the processing

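Each value was refitted with the replicate block, quantile normalization, median centring, without the 30% dimmest probe sets, with an intensity trend, with array weights, without each array, and over all probe sets (the last, and every refit of the neighbouring genes, IAA15 and TMK3, were chosen after seeing the data). IAA30, IAA33 and IAA29 kept direction and call in all 13 refits, with differences of 2.39 to 2.57, 1.67 to 2.16 and -0.88 to -0.66. IAA34 lost its call in 6 of 13, over all probe sets among them (adjusted p 0.055). IAA31 was removed by the dim filter and has 12 refits, none past the threshold. The count of non-canonical genes past the threshold was 3 or 4 throughout, though not always of the same genes. Without dexamethasone replicate 2, IAA20 passed (limma adjusted p 0.0333) and IAA34 did not (0.0587). Over all genes, 3252 probe sets passed, against 1724 to 2477 with 1 array left out (1724, 2017 and 2119 without mock replicates 1, 2 and 3), and 2417 with the replicate block. With the intensity trend 4348 passed, and without the dim probe sets 3996 of 12253 did. Deviations from the group means correlated at -0.00987, -0.0163 and 0.0305 between arrays numbered 1, 2 and 3. Only those numbered 3 correlated best with their own number. Dexamethasone replicate 1 and mock replicate 2 matched each other best, as did dexamethasone replicate 2 and mock replicate 1. Pairing by replicate number was thus not seen, and other pairings were not fitted. With the block, 1 of 7 GH3 and LBD genes passed instead of 3, and with 1 array left out 0 to 3 passed; the other Aux/IAA genes past the threshold were 0 to 1 in those fits. Signs turned for 3 genes, none of them called: IAA15 (-0.05 by quantile normalization, -0.05 to 0.16 with 1 array left out), TMK2 (-0.06 to 0.31 with 1 array left out) and AT1G15060 (-0.02 to 0.16). Why calls and signs changed between refits was not tested. The missing background estimate limits IAA31, IAA15, TMK2, GH3.4 and LBD29, and the mock levels of IAA33 and AT2G04020.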
